A study of Mus musculus with 18 samples.

Results

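The genes examined were 37 protein-coding mouse genes of the Wnt signalling system, taken by symbol from a fixed list out of 21631 protein-coding genes on the autosomes and chromosome X. They comprised 19 Wnt ligands, 10 Frizzled (Fzd) receptors, 4 secreted Frizzled-related proteins (Sfrp) and 4 Dickkopf proteins (Dkk). A transcription start with a known strand was listed for 25 of them and for 17274 genes in all. The other 12 (Wnt5a, Wnt7b, Wnt8a, Wnt10a, Fzd2, Fzd3, Fzd6, Fzd8, Sfrp1, Sfrp4, Dkk3 and Dkk4) were described over the gene body and at both gene ends.

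Histone marks were profiled by chromatin immunoprecipitation and sequencing in E14, an established line of mouse embryonic stem cells. All cells grew in 2i/LIF medium, which contains the GSK3 inhibitor CHIR99021, the MEK inhibitor PD0325901 and the cytokine LIF, and which carried light, medium or heavy arginine and lysine. Untreated cells gave 2 libraries each for H3K27me1, H3K27me2, H3K27me3, H3K36me2 and H3K36me3, without a spike-in. Further cells received 10 µM EPZ-6438, which blocks the catalytic subunit EZH2 of the complex that methylates H3K27, or an equal volume of DMSO, for 7 days, and gave 2 libraries per arm for H3K27me3 and for H3K36me2. Drosophila S2 chromatin, at 0.05% of the total, was added to those quantitative samples. The labels do not say that the 2 libraries of a group came from separate cultures, so p-values measure only the spread between these libraries, which may be technical.

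Wnt proteins are secreted lipid-modified signals that bind Frizzled receptors together with the co-receptors Lrp5 and Lrp6. Binding stops a cytoplasmic complex containing Axin, Apc and GSK3 from marking β-catenin for destruction, and β-catenin then acts with Tcf/Lef factors on target genes. A GSK3 inhibitor acts on the same complex inside the cell, downstream of ligand and receptor. H3K27me3, placed by the EZH2-containing complex PRC2, is known for marking silent developmental genes in stem cells, and H3K36me3 for marking transcribed gene bodies.

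A level is given below as the mean read number per 1 kb window divided by the mean of the same library over all windows ("times the library mean"), always for replicate 1 and then replicate 2. Total reads over non-overlapping windows were 22935044 to 67464843 in the untreated libraries, 21570141 and 27899913 for H3K27me3 after DMSO, and 991909 and 1777232 after the inhibitor. The quantitative H3K36me2 libraries held 50538962 to 111758166. As a check of the cells, the 7 stem cell markers (Pou5f1, Nanog, Sox2, Esrrb, Zfp42, Tfcp2l1, Klf4) had mean H3K36me3 levels of 4.71 to 8.24 over their bodies. Markers of other cell types ranged from 0.478 for Col1a2 to 9.39 for Tbx6, a mesoderm factor whose body lies within 1 kb of Ypel3 and Ppp4c. Eomes, another mesoderm factor, was at 3.78. Over the start ± 1 kb, H3K27me3 was 6.24 and 6.23 at Esrrb and at most 0.516 at the other stem cell markers.

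The letters upstream of 5 members show how unlike these start regions are. Each line gives the 250 bases before a RefSeq start (build GRCm38.p6), 5′ to 3′ in the direction of the gene, with every CpG dinucleotide in capitals. Wnt1 (chr15:98789607-98789856, plus strand) and Wnt7a (chr6:91411354-91411603, minus strand) are 2 of the 3 ligands whose starts stood highest in H3K27me3 above the library mean after the inhibitor. Dkk1 (chr19:30549497-30549746, minus strand) and Wnt8b (chr19:44493222-44493471, plus strand) kept 5 and 8 pooled H3K27me3 reads there. Fzd5 (chr1:64737751-64738000, minus strand) had the lowest H3K27me3 in untreated cells.
Wnt1: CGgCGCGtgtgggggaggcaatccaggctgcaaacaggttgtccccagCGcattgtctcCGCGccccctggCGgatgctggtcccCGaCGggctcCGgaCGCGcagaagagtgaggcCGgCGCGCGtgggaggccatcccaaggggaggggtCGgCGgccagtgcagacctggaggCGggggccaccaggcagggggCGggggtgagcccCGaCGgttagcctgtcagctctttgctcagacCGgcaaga
Wnt7a: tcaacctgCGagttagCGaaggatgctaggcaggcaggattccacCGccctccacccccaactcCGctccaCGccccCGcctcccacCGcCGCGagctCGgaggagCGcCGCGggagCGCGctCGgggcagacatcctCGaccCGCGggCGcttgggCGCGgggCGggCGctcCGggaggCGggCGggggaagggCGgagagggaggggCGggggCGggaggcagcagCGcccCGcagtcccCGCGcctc
Dkk1: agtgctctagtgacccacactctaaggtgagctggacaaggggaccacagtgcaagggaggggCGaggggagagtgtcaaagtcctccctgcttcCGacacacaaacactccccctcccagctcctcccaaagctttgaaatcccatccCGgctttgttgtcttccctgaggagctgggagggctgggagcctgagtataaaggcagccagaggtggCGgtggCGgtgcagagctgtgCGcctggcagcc
Wnt8b: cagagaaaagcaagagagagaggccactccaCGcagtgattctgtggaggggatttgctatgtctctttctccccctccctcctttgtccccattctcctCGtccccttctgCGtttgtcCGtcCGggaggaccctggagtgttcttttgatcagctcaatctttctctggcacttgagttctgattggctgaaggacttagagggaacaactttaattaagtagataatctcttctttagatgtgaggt
Fzd5: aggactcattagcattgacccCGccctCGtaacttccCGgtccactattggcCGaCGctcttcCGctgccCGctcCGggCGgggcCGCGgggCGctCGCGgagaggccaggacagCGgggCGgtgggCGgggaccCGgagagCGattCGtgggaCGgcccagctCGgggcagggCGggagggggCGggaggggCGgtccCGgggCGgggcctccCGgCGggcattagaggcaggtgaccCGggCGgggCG

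These windows held 23 CpGs for Wnt1, 34 for Wnt7a, 6 for Dkk1, 5 for Wnt8b and 32 for Fzd5. Over the 25 members the number ran from 5 to 48 with a median of 23, beside a median of 10 over the 17274 genes and of 9 over the genes high in H3K27me3. Within the members, CpG number and untreated H3K27me3 had a Spearman rho of 0.22 (n = 25 start sites, which share libraries and base composition), beside -0.06 over the 17274 genes. The letters CTTTGA, the core recognised by Tcf/Lef factors, were searched on both strands. They occurred in 3 of 25 members (Dkk1, Fzd1 and Wnt11) and in 13.2% of all 250-base windows.

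Which marks the Wnt genes carry in untreated stem cells is the first comparison. Among genes with a listed start, H3K27me3 covered the starts of all 15 ligands, both Sfrp and both Dkk genes, but only 3 of 6 Frizzled receptors. In all, 22 of 25 member starts (± 1 kb) reached at least 2 times the library mean in both libraries, beside 26.4% of 17274 genes. The member median was 11.1 and the median over all genes was 0.466. By family the median was 12.4 for Wnt, 10.6 for Sfrp, 8.48 for Dkk and 2.16 for Fzd. In bulk chromatin, fewer cells carrying a mark and less of it per cell cannot be told apart.

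Among the ligands, Wnt2b had the highest start level, 22.9 and 17.7 times the library mean. Wnt1, which patterns the midbrain, followed with 18.4 and 15.8, and Wnt4, needed for kidney and female gonad development, with 16.3 and 16.8. These 3 genes are neighbours in an order whose replicate values overlap between Wnt1 and both others. Wnt3, required for gastrulation, was at 15.2 and 15.4. Wnt5b was at 12 and 15, Wnt6 at 12.6 and 13.9, and Wnt7a at 11.3 and 13.7. Their replicate ranges overlapped one another, so no order is read among them. The lowest ligand starts were Wnt16 (6.67 and 6.61) and Wnt8b (6.47 and 6.94), both still above every Frizzled start except those of Fzd1 and Fzd9, whose ranges they overlap.

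The highest start outside the ligands was that of Dkk2, a Dickkopf protein that binds Lrp5 and Lrp6, at 12.9 and 13. Dkk1, the prototype Wnt antagonist of this family, was at 3.53 and 4.41. Sfrp2 and Sfrp5, which bind Wnt proteins outside the cell, were at 10.5 and 9.75 and at 10.5 and 11.6. Of the receptors, Fzd5, Fzd10 and Fzd7 lay below every other member. Fzd5 had 0.157 and 0.0937, Fzd10 had 0.235 and 0.234, and Fzd7 had 0.784 and 0.469. Fzd4, the receptor of retinal vessel growth, was at 3.49 and 3.89, the lowest values that passed the threshold of 2, and Fzd7 was the nearest below it.

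**Figure D1:**
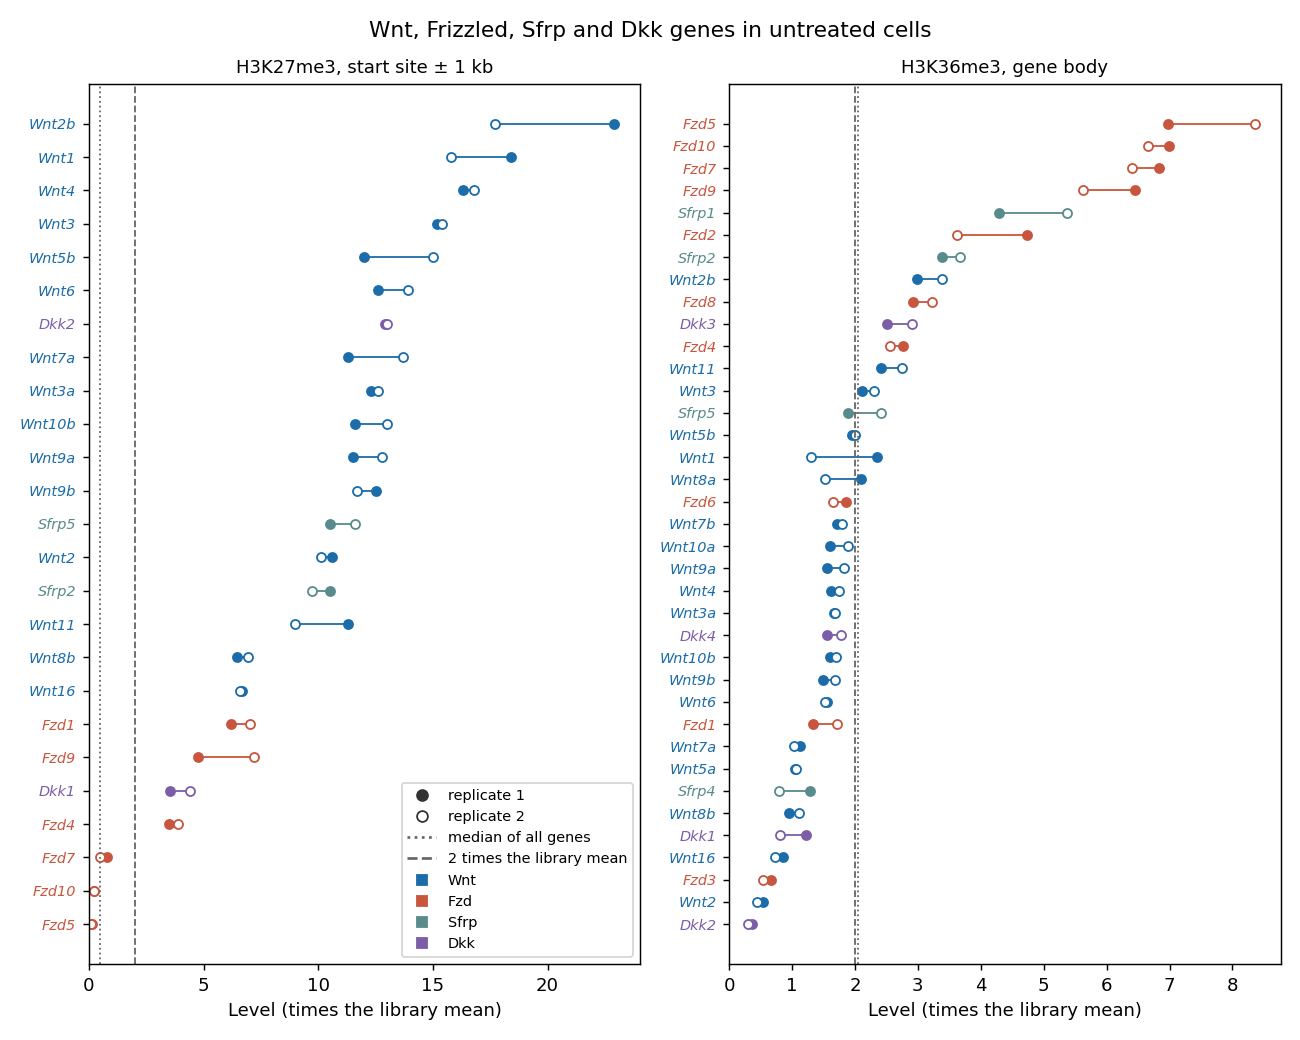
Levels in untreated cells, in times the library mean: H3K27me3 at the start ± 1 kb (left, 25 members) and H3K36me3 over the gene body (right, 37 members), with a point for each of 2 replicates, coloured by family. All Wnt starts lie at 6.47 or above, whereas Fzd5, Fzd10 and Fzd7 are at the bottom of the left panel and at the top of the right one.

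Gene bodies were counted after the first 1 kb, or without 1 kb at both ends for the 12 genes with no listed strand, and were available for all 37 members. H3K27me3 reached 2 times the library mean in both libraries over 27 of 37 bodies, beside 23.2% of 19268 genes: 18 of 19 Wnt, 5 of 10 Fzd, 2 of 4 Sfrp and 2 of 4 Dkk. Wnt1 had the highest body level, 15.4 and 14.2. Fzd2, a receptor with a single coding exon, followed with 11.5 and 12.9. Wnt2 (1.31 and 1.4) was the ligand below the threshold, although its start was at 10.6 and 10.1. For genes without a listed start, Wnt7b had 11.1 and 9.28 at its lower-coordinate end and 16.3 and 17 at the other. Wnt10a, needed for tooth development, had 15.1 and 15.8 at its lower end and 7.92 and 10.5 at its upper end. Wnt5a, a ligand of β-catenin-independent signalling, was high at 1 end only, with 9.8 and 10.6 against 1.22 and 1.22. Fzd2 had 3.57 and 4.26 at its lower end and 4.31 and 5.95 at its upper end. Fzd3 (5.84 and 6.61) and Fzd6 (2.86 and 4.17) were high at 1 end only, and Fzd8 at neither. Wnt8a had 3.37 and 3.75 at its lower end and 13.1 and 13.4 at its upper end. At their lower ends, Sfrp1 had 2.63 and 1.55, Sfrp4 2.63 and 2.25, and Dkk4 2.27 and 2.77. At their upper ends these genes had 1.18 and 0.469, 0.118 and 0.0469, and 1.02 and 1.17. Dkk3 had 2.04 and 0.75 at its lower end and 2.35 and 2.2 at its upper end. The contrast between families at starts therefore covers only genes with a listed start.

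The authors' H3K27me3 peaks held at least 1 kb of the 2 kb start region in 22 of 25 members, beside 30.6% of genes. Fzd5 and Fzd10 touched no such peak. Neighbouring ligands shared peaks. Wnt3 and Wnt9b lay in 1 peak of 117.5 kb (chr11:103699501-103817000), and the annotated spans of these 2 genes overlap by 1098 bp at the start of Wnt3. Wnt3a and Wnt9a lay in 1 peak of 117 kb (chr11:59246001-59363000). Wnt10a and the end of Wnt6 shared 1 of 32.5 kb. Wnt1 and Wnt10b, also neighbours, had separate peaks of 25 kb and 18.5 kb. The longest was the 158 kb peak over Wnt7b (chr15:85474501-85632500).

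Wnt5b and Wnt11 had more than 1 listed start. At Wnt5b the 3 listed starts had 12 and 15, 1.22 and 0.984, and 0.157 and 0 times the library mean of H3K27me3, from the most upstream to the most downstream. Only the most upstream one was high. At Wnt11 both starts were high, 11.3 and 9, and 9.73 and 9.7. With the most downstream start in place of the most upstream, a choice added after the data were seen, 21 of 25 members passed. The share over all genes with that choice is not given here.

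H3K36me3 over the body passed at more of the receptors than of any other family, a difference that was not tested. It reached 2 times the library mean in both libraries over 13 of 37 bodies, beside 48.4% of genes: 7 of 10 Fzd, 3 of 19 Wnt, 2 of 4 Sfrp and 1 of 4 Dkk. The highest were Fzd5 (6.97 and 8.36), Fzd10 (6.99 and 6.66) and Fzd7 (6.84 and 6.4), the receptors with the lowest H3K27me3 at their starts. Their replicate means lie within the range of the 7 stem cell markers. The other 4 of the 7 Fzd bodies (Fzd2, Fzd4, Fzd8 and Fzd9) were high in H3K27me3 as well. Between H3K27me3 and H3K36me3 the Spearman rho was -0.03 over the 37 bodies and 0.29 over the 25 starts, a description over sites that share libraries. Fzd9 was next (6.45 and 5.63), over 1 window, with Baz1b 2807 bp away. Dkk2 was lowest, at 0.362 and 0.294. Bodies of 8 members passed the threshold for both H3K27me3 and H3K36me3, and in bulk chromatin it cannot be told whether both sit on the same copies. The share of all genes passing both is not given here, so nothing is read from that count. Some of these bodies are short, with 1 window at Fzd8 and 2 at Fzd2. One of the 8, Wnt2b, shares 4524 bp with the neighbouring gene St7l, and the part of that gene in its H3K36me3 (2.99 and 3.38) was not tested. Fzd2 had 4.74 and 3.62 of H3K36me3 beside its 11.5 and 12.9 of H3K27me3, and the single window of Fzd9 had 6.12 and 8.06 of H3K27me3.

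At starts, H3K36me3 reached the threshold in 6 of 25 members, beside 11.9% of genes. The lower methylation states of H3K27 were counted in the same way. No member start reached 2 times the library mean in both libraries for H3K27me1 (2.83% of genes) or H3K27me2 (5.92%), and Fzd9 reached it for H3K27me2 in replicate 1 (2.26 and 1.4). At shares that low few of 25 starts would pass in any case, so nothing is read from these counts. Peaks held 0 of 25 starts for H3K27me1 (25.6% of genes) and 3 of 25 for H3K27me2 (Fzd7, Fzd9 and Dkk1, beside 30.3%). Over bodies 0 of 37 members reached the threshold for H3K27me1 (19.1% of genes) and 2 for H3K27me2 (Wnt2b and Dkk3, beside 14.1%). Across the 25 starts, H3K27me3 and H3K27me2 had a Spearman rho of -0.60, a description over sites that share libraries. The H3K27me1 replicates differed at these sites: replicate 1 lay above replicate 2 at 24 of 25 starts, by a median of 2.11 times. At Wnt2b they were 1.37 and 0.151. The H3K27me1 levels of single starts are therefore not interpreted.

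H3K36me2 was present over many member bodies. It reached the threshold over 17 of 37, beside 27.1% of genes, led by Wnt6 (3.81 and 3.08), and at 3 of 25 starts (Wnt8b, Wnt10b and Sfrp5), beside 19.1%. H3K36me2 peaks held 16 of 25 starts, beside 50% of genes. Of the 17 bodies, 16 were also among those high in H3K27me3, and the exception was Dkk3, a divergent Dickkopf protein. Since 27 of all 37 member bodies were high in H3K27me3, and the share over all genes is not given here, nothing is read from this overlap.

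Other genes of the pathway were described by role, without a test between roles, since each holds few genes. Of 42 genes from a list of co-receptors, secretion factors, R-spondins, further antagonists, intracellular components, nuclear factors and targets, 27 had a start and 13 of these were high in H3K27me3, beside 26.4% of all genes. H3K36me3 was high over 25 of the 42 bodies, beside 48.4%. None of 6 intracellular components with a start was high in H3K27me3, and all 9 passed for H3K36me3 over the body; β-catenin itself (Ctnnb1) had 0.275 and 0.187 of start H3K27me3 and 7.03 and 7.62 of body H3K36me3. All 4 further antagonists with a start were high in H3K27me3: the secreted proteins Frzb, Wif1 and Sost, and Kremen2, a membrane receptor for Dickkopf proteins. So were 4 of 5 genes of the R-spondin axis, led by Rspo1 (16.9 and 17.2), whose product amplifies Wnt signals. Of the rest, 1 of 3 co-receptors, 1 of 4 nuclear factors, 2 of 4 targets and the 1 secretion factor with a start were high. The target Axin2 was low in start H3K27me3 (0.51 and 0.187), and Nkd2 was high (10.4 and 11). The 3 genes outside the list whose 5-mark start profile over 10 libraries lay closest to that of Wnt2b were Kif1a, Atoh8 and Lmx1b, at Euclidean distances of 1.23, 1.3 and 1.36 on the log2 scale.

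The second comparison asks what 7 days of EZH2 inhibition did to the mark at these genes. On the spike-in scale H3K27me3 fell at every member, together with nearly the whole genome. The scale multiplies reads by a factor of each track read here as the spike-in factor that the authors applied, and its derivation is not stated in the sources used here, so all folds between arms rest on it. The mean over all windows went from 48.7 and 35.7 scaled reads per window after DMSO to 0.0911 and 0.0668 after the inhibitor, 534-fold lower. limma called 25 of 25 member starts and 37 of 37 bodies lower at an adjusted p under 0.05, beside 10391 of the 10393 starts and 17637 of the 17640 bodies tested, each 100% after rounding. A region entered the test by its mean reads over the 4 libraries, which come almost wholly from DMSO, so nothing is read from the number of members called. The adjusted p of the 25 starts ran from 2.89e-12 to 1.12e-08 by limma. Folds below are ratios of arm means of the levels, since the 1 added before the log2 understates the fitted change.

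Wnt2b went from 1527 and 986 scaled reads per window to 7.38 and 4.85, 205-fold lower. Wnt1 went from 1284 and 910 to 4.84 and 5.89, which is 204-fold, and Wnt7a from 942 and 661 to 4.96 and 4.41, which is 171-fold. Wnt4 fell 282-fold, from 1233 and 853 to 3.63 and 3.76. In none of these did the arms overlap. Larger folds were found at starts with few reads left. Dkk1 went from 324 and 207 to 0.121 and 0.198, on 1 and 4 reads, 1665-fold with a 95% interval of 713 to 5128 (exact Poisson, inhibitor reads only, counting error only). Wnt16 held 2 and 2 reads and was 2221-fold lower, with an interval of 867 to 8151 and 3825-fold without inhibitor replicate 1. Wnt8b held 1 and 7 reads and was 1260-fold lower (639 to 2918), and 2435-fold without inhibitor replicate 2.

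Over the 25 starts the fold ran from 55.7 at Fzd5 to 2221 at Wnt16, with a median of 374. Pooled over these starts, the level went from 716 and 485 scaled reads per window to 1.9 and 1.8. Over the starts of all 17274 genes it went from 128 and 91.1 to 0.281 and 0.247. The fold of the whole genome is over all windows, so nothing particular to Wnt genes is read from these folds. Fzd5, Fzd7 and Fzd10, low in the mark to begin with, went from 14.9 and 15.2, 62.4 and 32, and 62.4 and 28.6 to at most 0.363. Over bodies the fold was given for 34 of 37 members and ran from 56.1 (Fzd5) to 1728 (Sfrp5), with a median of 678. Both ends rest on few reads. The Fzd5 body held 9 and 3, with an interval of 32.1 to 109, and its fold was 234 without inhibitor replicate 1 and 31.9 without inhibitor replicate 2. The interval of Sfrp5, on 10 reads, was 940 to 3603. No fold is given for the bodies of Fzd8, Fzd10 and Dkk1, which held at most 3 inhibitor reads in all. The pooled window reads of the 25 starts were 6026 and 7192 after DMSO and 393 and 907 after the inhibitor.

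**Figure D2:**
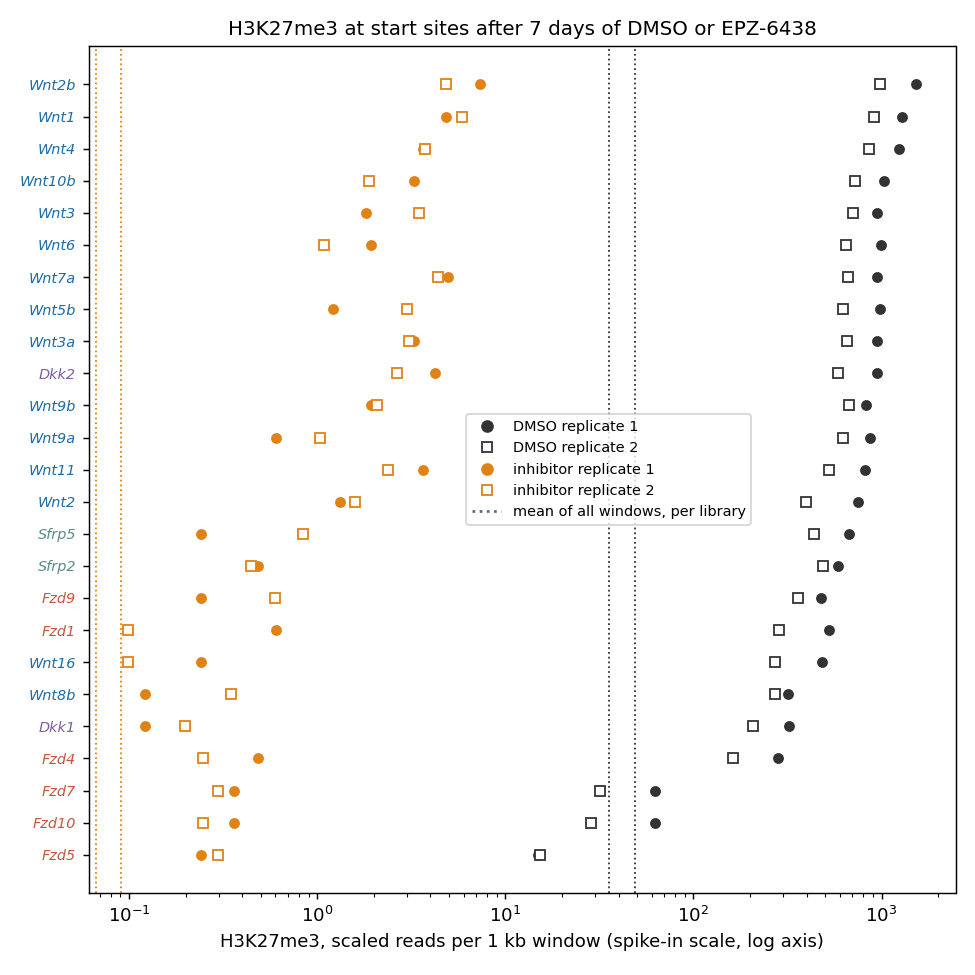
H3K27me3 at 25 member starts on the spike-in scale (log axis, scaled reads per 1 kb window), with a point for each of 2 DMSO and 2 inhibitor libraries and dotted lines at each library's mean over all windows. The arms do not overlap at any start, and the inhibitor points of Wnt2b, Wnt1 and Wnt7a lie the farthest right of their arm, between 4.41 and 7.38.

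Because the genome fell as a whole, the distribution of what was left is a separate question, asked on each library's own mean, where the spike-in factor has no part. At several ligand starts the remaining H3K27me3 stood further above the library mean than the mark had stood after DMSO. Wnt1 went from 26.4 and 25.5 to 53.1 and 88.2 times the library mean, on 40 and 119 reads. Wnt7a went from 19.4 and 18.5 to 54.4 and 65.9, on 41 and 89 reads, and Wnt2b from 31.4 and 27.6 to 81 and 72.6, on 61 and 98 reads. At these 3 starts the arms did not overlap, with the inhibitor values on top.

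The same order held at Dkk2 (19.5 and 16.4 to 46.5 and 40), at Wnt11, which acts in cell movements of gastrulation, and at Wnt3a, Wnt4, Wnt3, Wnt10b and Wnt9b. Wnt3 was the narrowest, from 19.4 and 19.6 to 19.9 and 51.9. The reverse order held at 7 starts. Wnt16, a regulator of bone, went from 9.95 and 7.65 to 2.66 and 1.48, and Dkk1 from 6.65 and 5.81 to 1.33 and 2.96. Wnt8b, Wnt9a, Fzd1, Fzd9 and Sfrp2 were the others. These 7 starts held 1 to 21 reads per inhibitor library, and Wnt16, Dkk1, Wnt8b and Fzd1 at most 7, so their size of change is not read. A single read in a single window is worth 2.66 and 1.48 times the library mean in the inhibitor libraries, which sets how finely low levels can be read.

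In all, both inhibitor libraries were higher at 13 of 25 member starts, beside 26.9% of 10393 genes, and lower at 7, beside 36.6%. Of the 13, 10 had at least 15 reads in each inhibitor library; Fzd5, Fzd7 and Fzd10 had 2 to 6 and are not interpreted. Those shares move with the starting level. Among the 4565 genes high in untreated cells, whose median level was 5.07, 10.8% were higher and 60.5% lower, beside 10 and 7 of 22 members, whose median was 12.1. Among 586 genes at 10 times the library mean or more, a threshold chosen after the data were seen, 48.8% were higher and 30.9% lower, beside 9 and 1 of 14 members. The difference between members and other genes was not tested, and nothing particular to Wnt genes is read from these counts.

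**Figure D3:**
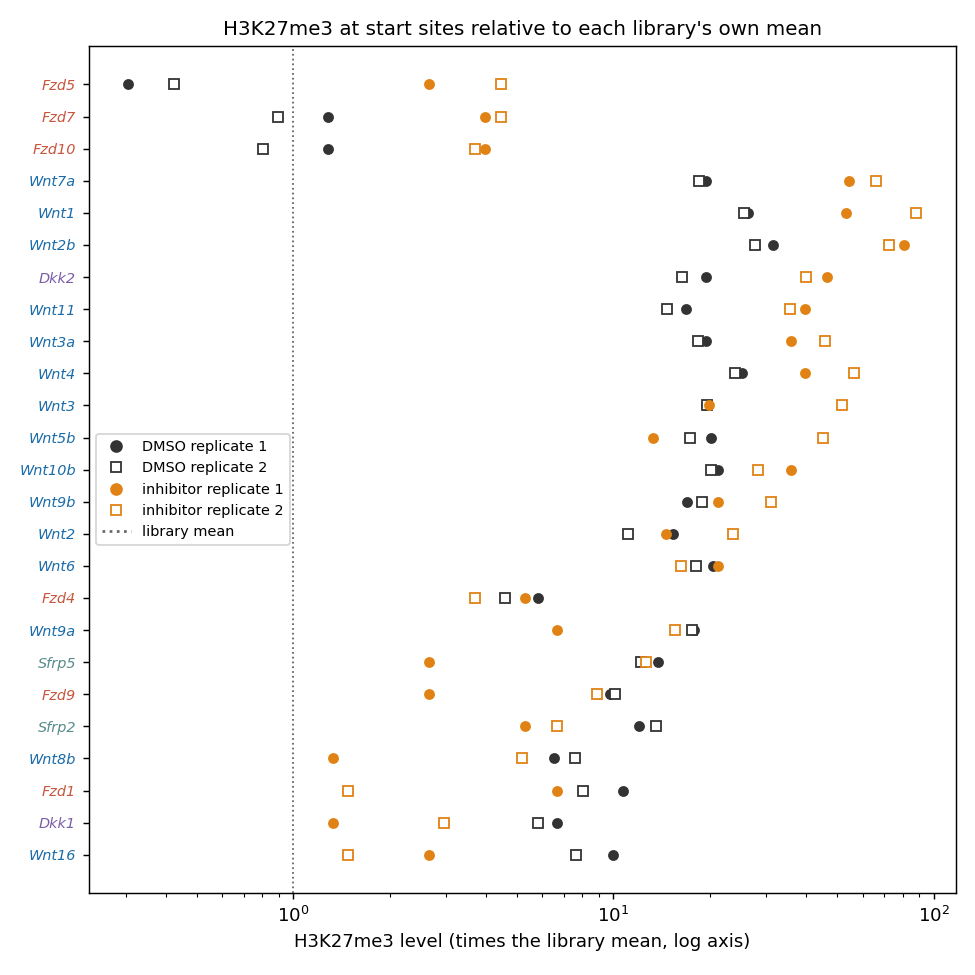
H3K27me3 at 25 member starts in times the mean of the same library (log axis), ordered by the change between arms, with a point for each of 2 DMSO and 2 inhibitor libraries. Starts such as Wnt7a, Wnt1 and Wnt2b lie to the right after the inhibitor and Wnt16, Dkk1 and Fzd1 to the left, while Fzd5, Fzd7 and Fzd10 rest on 2 to 6 inhibitor reads.

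Bodies were compared in the same way. Both inhibitor libraries were higher over 12 of 37 bodies, beside 50.9% of genes, and lower over 19, beside 28.6%. These shares also move with the starting level. Among the 4467 genes whose untreated bodies were high, with a median level of 3.86, 7.37% were higher and 71.7% lower, beside 7 and 16 of 27 members, whose median was 6.69. That restriction was chosen after the data were seen, and the difference between members and other genes was not tested. Of the 13 members with a relatively higher start, 4 also had a higher body (Wnt1, Wnt2b, Wnt3a and Fzd5) and 6 a lower one, beside 65.9% and 15.6% of the 2540 genes with such a start. Without Fzd5, Fzd7 and Fzd10 these were 3 and 6 of 10. Of the 7 with a lower start, 5 had a lower body (Wnt9a, Wnt16, Fzd9, Sfrp2 and Dkk1) and Fzd1 a higher one, beside 61.6% and 13.9% of 3395 genes. The 5 members whose arms overlapped at the start had lower bodies, beside 35.7% of 3333 genes. The genes in these shares were not matched on level. Wnt7a, which patterns the limb and whose start stood out, went from 6.94 and 6.59 to 3.64 and 2.8 over its body. Wnt4 went from 8.87 and 8.34 to 6.2 and 3.74, and Wnt3 from 10 and 11 to 6.05 and 8.34. In the members with both regions higher, Wnt1 went from 21.9 and 21.2 to 67.3 and 103 over a body of 3 windows. Wnt2b went from 3.22 and 3.43 to 3.65 and 4.54, and Wnt3a from 5.66 and 5.61 to 6.57 and 6.46, both by less than Wnt1. Among genes without a listed start, Wnt7b, a ligand of lung development, went from 8.51 and 7.75 to 14 and 17.9. The body of Sfrp5 went from 9.36 and 10.1 to 2.66 and 3.46 on 3 and 7 reads, and that of Fzd8 from 9.4 and 9.72 to 0 and 2.96 on 0 and 2 reads.

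Pooled over the 25 members with both regions, the start-to-body ratio of H3K27me3 was 3.06 and 2.76 after DMSO and 5.44 and 6.61 after the inhibitor. The log2 ratio of the arm means was 1.05, and the arms did not overlap. An exact two-sided permutation test gave p = 0.333, the smallest that 2 against 2 libraries allow. Over the 15419 genes with both regions the ratio was 2.48 and 2.43 after DMSO and 2.6 and 3.29 after the inhibitor. These genes were not matched to the members on starting level, and the difference from the members was not tested. Untreated cells, without a spike-in, had 2.2 and 2.26 at the members. This ratio was chosen after the data were seen.

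CpG numbers overlapped between the relatively higher and lower starts. The 13 higher starts had a median of 32 CpGs (7 to 44), or 28.5 without Fzd5, Fzd7 and Fzd10. The 7 lower ones had 12 (5 to 48), with no minimum of reads. Among the printed windows, Wnt1 and Wnt7a belong to the former and Dkk1 and Wnt8b to the latter. Dkk2, with 7 CpGs, was higher and Wnt9a, with 48, was lower. The Spearman rho of CpG number with the relative change was 0.47 over the 22 members high in H3K27me3 and 0.14 over the 4504 high genes with inhibitor reads. For GC content it was 0.49 and 0.13. These start sites share libraries and base composition. The ranked changes include those of Wnt16, Dkk1, Wnt8b and Fzd1, whose size of change is not read. The genes were not matched on starting level, with an untreated median of 12.1 over the 22 members and 5.07 over the 4565 high genes. The difference between these rho values was not tested, and nothing particular to Wnt genes is read from it. The median GC content of the windows was 72% for the 13 higher and 60.8% for the 7 lower starts. CpG number, GC content and starting level were not told apart here.

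The third comparison concerns H3K36me2 in the same 2 arms. Without a replicate block, no member passed the test at start or body, on the spike-in scale or relative to the library mean. On the spike-in scale limma called 27 starts higher and 2 lower of 16497, 0.164% and 0.0121%, and 9 bodies higher of 18837, 0.0478%. At an unadjusted p under 0.05 these numbers were 379 starts and 289 bodies. Members had 0 of 25 starts and 0 of 37 bodies, also at an unadjusted p under 0.05, and limma-voom on the recovered reads called 0 genes (212 starts and 263 bodies unadjusted). Relative to the library mean, limma called 0 starts (2395 at an unadjusted p under 0.05) and 0 bodies (2785), and limma-voom 0 of each (3193 and 3580 unadjusted). At an unadjusted p under 0.05, 0 member starts and 3 member bodies passed by limma, and 4 and 6 by limma-voom. With the replicate number as a block, limma called 2 member bodies higher on the spike-in scale (Dkk2 and Wnt2), beside 2185 of 18837 bodies. That block pairs libraries by number, and the labels do not say that a number marks a shared culture or day.

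Values of single bodies are given with these limits. Relative to the library mean, Dkk2 had 0.474 and 0.468 after DMSO and 0.779 and 0.627 after the inhibitor, a limma log2 difference of 0.48 ± 0.12 (SE, adjusted p = 0.327). Wnt2 had 1 and 0.991, then 1.24 and 1.17 (adjusted p = 0.335 by limma). Fzd1 had 1.25 and 1.27, then 1.37 and 1.52 (adjusted p = 0.364 by limma). In these 3 the inhibitor libraries lay above the DMSO libraries. Dkk2 and Wnt2 are the members whose bodies had the lowest and next-lowest untreated H3K36me3. The Fzd1 body had 1.34 and 1.72 of that mark. A relation between untreated H3K36me3 and the H3K36me2 difference was not tested.

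On the other side, Sfrp1, an antagonist that binds Wnt proteins, had 2.07 and 2.29 after DMSO and 1.52 and 1.69 after the inhibitor, a limma log2 difference of -0.42 ± 0.10 (SE, adjusted p = 0.325). Wnt1 had 2.03 and 2.02, then 1.27 and 1.78 (adjusted p = 0.352 by limma). Dkk1 had 1.5 and 1.02, then 1.26 and 0.691, with overlapping arms (adjusted p = 0.586 by limma). Both inhibitor libraries were lower over 17 of 37 member bodies, beside 37.2% of genes, and higher over 5, beside 15.9%. At starts the order was lower at 9 of 25, beside 39.4%, and higher at 0, beside 11.2%. Pooled over the 37 bodies the level was 2.07 and 2.03 after DMSO and 1.9 and 1.95 after the inhibitor. Over the bodies of all genes it was 1.25 and 1.29, then 1.21 and 1.25. The difference between members and all genes was not tested.

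**Figure D4:**
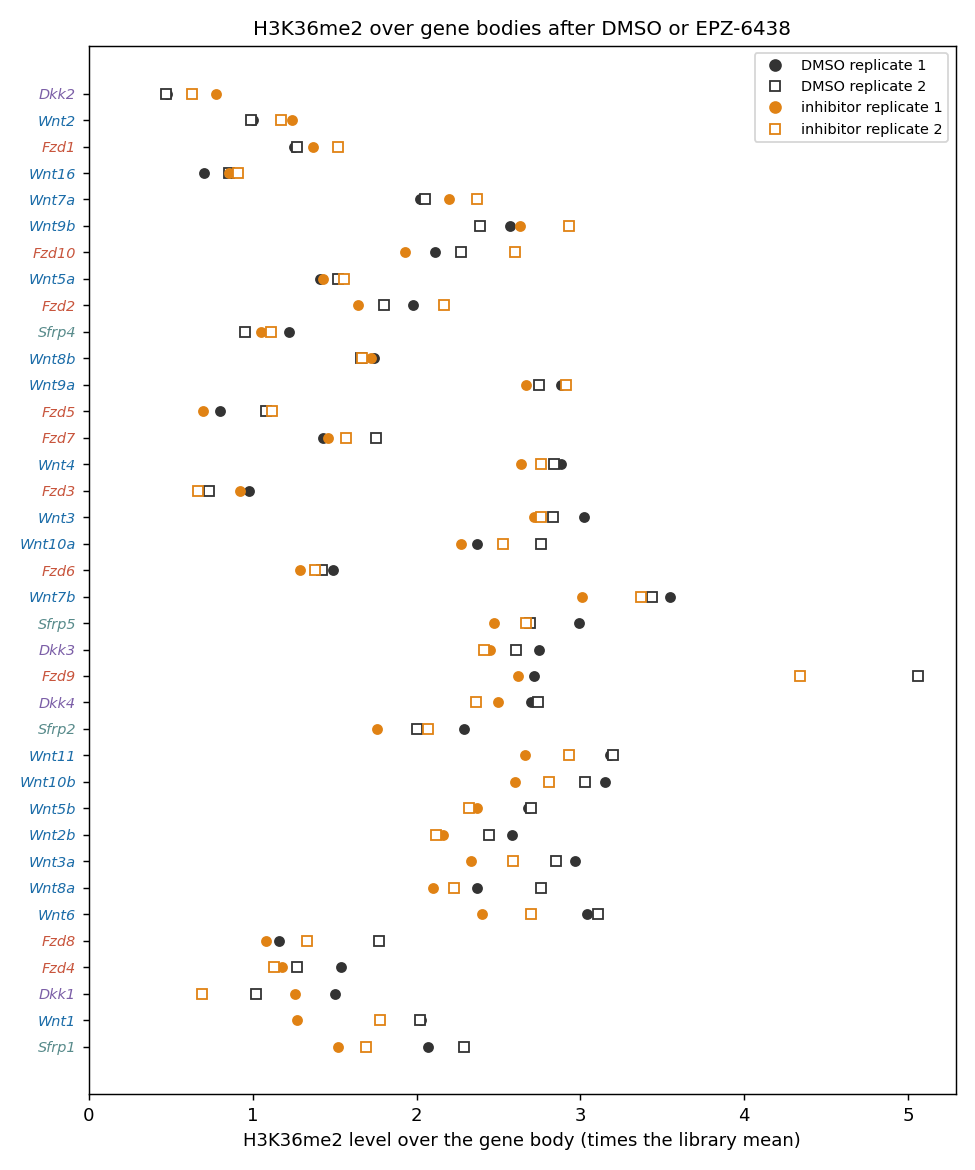
H3K36me2 over the bodies of 37 members in times the mean of the same library, ordered by the change between arms, with a point for each of 2 DMSO and 2 inhibitor libraries. Dkk2, Wnt2 and Fzd1 lie to the right after the inhibitor and Sfrp1 and Wnt1 to the left, and differences are small beside the spread over genes, which runs from 0.468 to 5.06.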

How the data were processed

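Each of 18 deposited tracks gave a log2 value per 1 kb window (step 500 bp), which the authors had normalised. The submitters' processing notes name Trim Galore 0.4.2, Bowtie2 2.2.6.2, SICER and the builds mm10 and dm3. Peaks came from the authors' deposited lists, whose score column was used only as an alternative threshold. H3K36me3 peaks were not used here. Read as log2(x + 1), the tracks gave linear values that were whole multiples of 1 step per track (100% of windows, tolerance 0.02), and these multiples were taken as reads. In the quantitative tracks the step was taken as the spike-in factor, an inference from the values. Intervals cover counting error only.

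Non-overlapping windows were averaged over start ± 1 kb and bodies, with RefSeq gene spans and starts (GRCm38.p6). The pseudocount was 1 on the spike-in scale and 0.1 relative to the library mean, and regions needed a mean of 5 window reads over the 4 libraries. limma 3.58.1 in R 4.3.3 was fitted over all genes with Benjamini-Hochberg adjustment and a threshold of 0.05. Tested on simulated data, the H3K27me3 fit relative to the library mean called unchanged genes lower, so its calls are not used. Named members were those highest (8) and lowest (4) in start H3K27me3, highest in body H3K36me3 (3), with most H3K27me3 reads after the inhibitor (3), and with the largest differences of body H3K36me2 (3 each way). Dkk1, Wnt8b, Wnt16 and other members named beyond these were chosen after their values were seen. The members and gene lists were chosen with earlier results of these data known. Alternatives covered scale, pseudocount, tool (limma-voom), filter, region, spread, replicate number as a block and leaving out each library.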

Additional observations from a re-analysis of the deposited data

How the results depend on the processing

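On the spike-in scale, the H3K27me3 calls moved by over 1.5 times with a minimum of 20 reads (5350 starts, as fewer genes were tested) and on the library-mean scale (0 starts with 0 members, and 8032 bodies with 10 members, 36.7% of all bodies higher and 8.82% lower). Leaving out a library on that second scale (6133 starts without inhibitor replicate 1, 0 without either DMSO library) gave 0 to 7001 starts with 0 to 17 members and 0 to 12689 bodies with 0 to 23 members. These fits are among those whose calls are not used. Relative to the library mean, log2 differences at some starts and bodies are given here with all 4 libraries. Values in parentheses are without DMSO replicate 1, DMSO replicate 2, inhibitor replicate 1 and inhibitor replicate 2, in that order. On the spike-in scale the differences at these starts and bodies were all negative. With a library left out, the sign turned only at the starts of Wnt5b, Wnt6 and Fzd4 among those listed. At starts, Wnt2b was at 1.38 (1.47, 1.29, 1.30 and 1.46). Wnt1 was at 1.40 (1.42, 1.37, 1.76 and 1.03). Wnt4 was at 0.94 (0.98, 0.90, 1.19 and 0.69). Wnt3 was at 0.72 (0.71, 0.72, 1.41 and 0.03). Wnt5b was at 0.39 (0.49, 0.29, 1.27 and -0.49). Wnt6 was at -0.04 (0.04, -0.13, -0.23 and 0.15). Dkk2 was at 1.26 (1.39, 1.14, 1.16 and 1.37). Wnt7a was at 1.66 (1.69, 1.63, 1.80 and 1.52). Fzd4 was at -0.21 (-0.04, -0.38, -0.47 and 0.04). Fzd7 was at 1.88 (2.11, 1.64, 1.95 and 1.80). Fzd10 was at 1.82 (2.13, 1.51, 1.77 and 1.87). Fzd5 was at 2.94 (2.75, 3.13, 3.30 and 2.58). Over bodies, Wnt7b was at 0.95 (1.02, 0.89, 1.13 and 0.78). Wnt1 was at 1.95 (1.97, 1.92, 2.25 and 1.64). Fzd5 was at 2.36 (2.61, 2.12, 1.22 and 3.50). The 2 scales measure different quantities, abundance and distribution.

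For H3K36me2 starts on the spike-in scale, the call count was 0 on the library-mean scale, with limma-voom, without a filter and with at least 20 reads, and 3 for ± 2.5 kb. It was 3 to 59 with a library left out: 56 without DMSO replicate 1, 3 without DMSO replicate 2 and 59 without inhibitor replicate 2. For bodies it was 0 under the same 4 settings, 33 over the whole gene, 20 with all 4 groups in the fit, and 1 to 38 with a library left out: 16 without DMSO replicate 1, 1 without DMSO replicate 2 and 38 without inhibitor replicate 2. H3K36me2 starts relative to the library mean gave 0 to 222 calls with a library left out, 222 without DMSO replicate 1 and 61 without DMSO replicate 2. Relative to the library mean, none of the 6 members named for body H3K36me2 was called in any alternative without a library left out. On the spike-in scale the replicate block called Dkk2 and Wnt2, as given below. Relative to the library mean, the log2 difference of Dkk1 ran from -0.76 to 0.03 with a library left out, turning sign without inhibitor replicate 2.

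The labels number replicates 1 and 2 in both arms and do not say that a number marks a shared culture or day. Whether the replicate block pairs related samples is therefore not known. Deviations of same-numbered libraries from their arm means had Pearson r of 0.0315 to 0.708 across genes in the 6 fits, with 1 independent deviation per arm. The highest were those of H3K36me2 bodies, 0.638 on the spike-in scale and 0.708 relative to the library mean. With the block, H3K36me2 gave 152 starts and 2242 bodies on the spike-in scale. The bodies called higher were 11.6% of all tested and 2 of 37 members (Dkk2 and Wnt2). It gave 673 starts relative to the library mean. The cause was not tested for any of these changes.

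In untreated cells, member H3K36me2 starts passing were 0 at 3 times the library mean, 6 at ± 2.5 kb, and 3 to 8 with 1 library. Member H3K27me2 starts were 0 to 1 with 1 library, and member H3K36me3 bodies were 7 at 3 times. The shares over all genes at these settings are not given here, so nothing is read from these counts. The log2 change of the start-to-body ratio was 0.82 both at ± 2.5 kb and as a median over members, and 0.90 to 1.18 with a library left out. Relatively higher member bodies numbered 7 of 27 among bodies high in untreated cells, beside 7.37% of genes. Relatively lower member starts numbered 1 of 14 at 10 times the library mean, beside 30.9% of genes. With at least 10 reads in each inhibitor library they numbered 0 of 13, beside 4.8% of genes, and lower bodies 12 of 24, beside 29.2%. That minimum removes regions that were lower after the inhibitor, so nothing is read from its counts. The depth of the inhibitor H3K27me3 libraries limits all values below a few reads.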
